A study of Mus musculus with 2 samples.

Results

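The regions described here are distal intergenic stretches of chromatin that carried histone H3 trimethylated at lysine 27 (H3K27me3) in mouse embryonic stem cells. A region was kept where peaks of replicate 1 and replicate 2 overlapped on the 19 autosomes, after pieces lying 3 kb or less apart had been joined. It also had to be 1 kb or longer, lie outside every annotated gene body and lie over 10 kb from every annotated transcript start. By this rule, 1185 of 9532 autosomal domains of 1 kb or longer were distal (12.4%). They spanned 5.08 Mb and held 2.62 Mb of the 38.8 Mb that carried a peak in both replicates (6.75%). As background, 1.13% of 1 kb tiles of eligible distal sequence, the sequence that the position rule admits, held such common bases. The regions were chosen by the peaks of both replicates, so their length, signal and promoter calls are descriptions and no test was applied to them.

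The study measured H3K27me3 by chromatin immunoprecipitation followed by sequencing (ChIP-seq) in E14TG2a.4 cells, a male embryonic stem cell line of the 129/Ola strain labelled as embryonic day 3.5. Both biological replicates came from this one line and formed the only group, with no treatment, differentiated state or altered genotype to compare. The authors' deposited peak lists held 62896 autosomal peaks covering 53.1 Mb in replicate 1 and 97283 covering 57.8 Mb in replicate 2. Read depth is unknown, because the lists give peaks and no read counts. The promoter of 1 of 9 listed embryonic stem cell genes, Esrrb, was marked, as were 5 of 7 listed fibroblast promoters. Over all autosomal coding genes the share was 26.8%, and with so few listed genes these calls are a weak check. No RNA was measured here, so the cell type was checked by promoter calls alone.

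H3K27me3 is deposited by Polycomb repressive complex 2, whose catalytic subunit is EZH2 or EZH1, and is read by Polycomb repressive complex 1. In embryonic stem cells the mark is best known at CpG-rich promoters of silent developmental regulators. Outside promoters it is known at CpG islands far from genes and at poised enhancers, regulatory elements that are inactive in stem cells and can become active on differentiation.

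Sequence is shown for 5 regions: the longest region, also among those of highest signal in both replicates (nearest coding gene Fam53a), the next longest (Med13l), 2 other regions of very high signal (Zbtb43 and Nkd1), and the region of highest signal that held no CpG-rich stretch (Tmco5). Each line gives 300 bases around the middle of the longest stretch common to both replicates, on the plus strand of mm10, read from RefSeq's GRCm38 assembly. CpG dinucleotides are in capitals.
Fam53a region, chr5:33547153-33547452: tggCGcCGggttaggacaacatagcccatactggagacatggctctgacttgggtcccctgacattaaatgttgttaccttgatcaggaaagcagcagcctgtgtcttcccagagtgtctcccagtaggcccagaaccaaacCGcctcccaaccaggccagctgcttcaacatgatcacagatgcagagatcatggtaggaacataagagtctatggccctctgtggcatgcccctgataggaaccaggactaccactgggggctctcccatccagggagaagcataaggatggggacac
Zbtb43 region, chr2:33546539-33546838: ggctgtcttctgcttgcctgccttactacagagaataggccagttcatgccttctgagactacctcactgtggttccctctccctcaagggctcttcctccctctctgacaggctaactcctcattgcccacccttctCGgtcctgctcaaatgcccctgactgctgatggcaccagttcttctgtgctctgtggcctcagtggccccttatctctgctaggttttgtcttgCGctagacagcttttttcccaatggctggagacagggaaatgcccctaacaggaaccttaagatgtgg
Nkd1 region, chr8:88451219-88451518: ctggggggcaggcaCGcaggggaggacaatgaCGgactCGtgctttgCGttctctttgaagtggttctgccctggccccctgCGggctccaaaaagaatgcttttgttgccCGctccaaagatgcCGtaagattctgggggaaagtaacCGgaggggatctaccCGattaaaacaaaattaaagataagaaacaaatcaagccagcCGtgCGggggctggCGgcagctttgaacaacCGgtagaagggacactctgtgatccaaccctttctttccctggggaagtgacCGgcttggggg
Med13l region, chr5:119053293-119053592: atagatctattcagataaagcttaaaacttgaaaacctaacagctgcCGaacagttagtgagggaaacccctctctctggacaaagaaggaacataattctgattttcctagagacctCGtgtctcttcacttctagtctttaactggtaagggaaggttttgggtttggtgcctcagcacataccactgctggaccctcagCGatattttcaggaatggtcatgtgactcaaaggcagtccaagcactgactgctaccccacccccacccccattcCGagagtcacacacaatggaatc
Tmco5 region, chr2:116557971-116558270: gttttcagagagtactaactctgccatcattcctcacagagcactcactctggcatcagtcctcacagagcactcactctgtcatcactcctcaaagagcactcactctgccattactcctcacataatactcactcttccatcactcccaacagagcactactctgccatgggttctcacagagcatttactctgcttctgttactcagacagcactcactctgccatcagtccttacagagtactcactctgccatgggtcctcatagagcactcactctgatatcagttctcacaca
The Nkd1 window held 14 CpG dinucleotides, against 3 in the Fam53a window, 2 in the Zbtb43 window and 4 in the Med13l window. The Tmco5 window held 0 CpG and repeats a short unit, recognisable by its recurring cactcactctg, a repeat described further below. Regions of high signal thus had printed windows of very different CpG content. The signal of a region is that of its highest peak, which need not lie over the printed window.

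Length varied widely among the regions. The median was 2989 bp, the shortest was 1001 bp and the longest 59972 bp. A length of 5 kb or more was reached by 300 regions (25.3%), 10 kb by 82 (6.92%) and 20 kb by 18 (1.52%). The domains that held a coding gene start were longer, with a median of 5941.5 bp (n = 3472) and 25.7% at 10 kb or more. Gene-body domains without a coding start had a median of 2981 bp (n = 4103) and intergenic domains within 10 kb of a start a median of 2451.5 bp (n = 772), so the distal regions were close in length to the other domains that lacked a coding start.

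**Figure D1:**
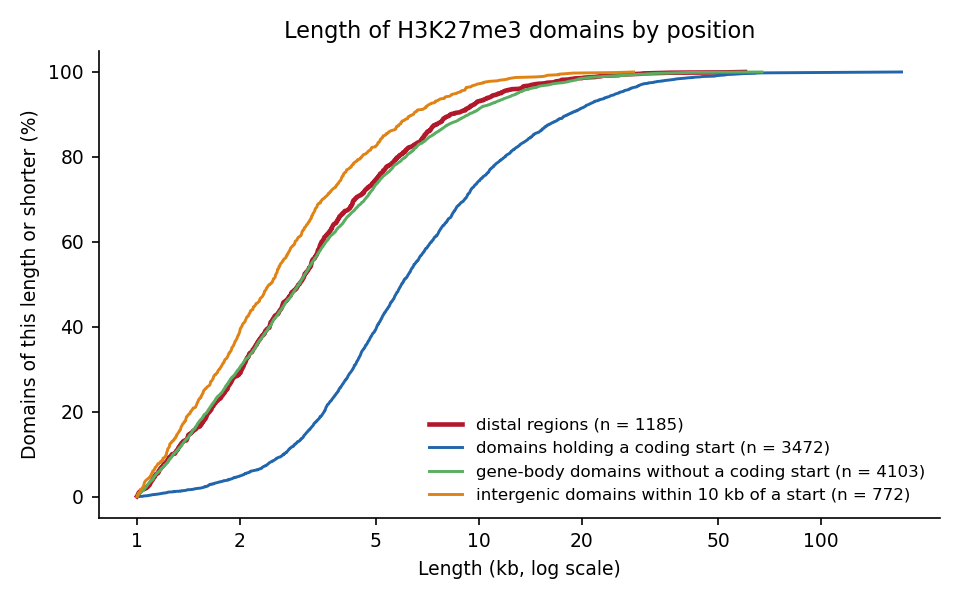
Cumulative share of autosomal H3K27me3 domains (vertical axis, percent) by length (horizontal axis, kb, log scale) in 4 position classes. The curve of the distal regions (median 2989 bp) runs beside that of gene-body domains without a coding start, and the curve of domains holding a coding start (median 5941.5 bp) lies to the right of all others.

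Most regions consisted of several separate pieces in the peak calls. They held a median of 3 pieces common to both replicates (range 1 to 39), and these pieces covered a median of 52.6% of the region. A single common piece formed 31 regions. The median deposited peak was shorter than the 1 kb minimum of a region in both replicates (547 and 373 bp). The number of pieces therefore depends on the peak calls and the length rule, and whether the mark itself was interrupted was not tested. Peaks covered a median of 1792 bp of a region in replicate 1 and 1685 bp in replicate 2, so both replicates put a like amount of marked sequence into the typical region.

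Each of the 10 longest regions had a marked promoter among the 2 coding genes that flanked it. The same was found for 80.2% of all 1185 regions and for 66 of the 82 regions of 10 kb or more (80.5%). The longest, chr5:33538762-33598733, lay between Nkx1-1, a homeobox transcription factor gene whose promoter was marked, and Fam53a, whose promoter was not. Of its 59972 bp, 49076 bp were common to both replicates, and its highest peak signal was 14.7 in replicate 1 and 13.9 in replicate 2. The next longest, chr5:119043897-119097275 (53379 bp), had signals of 12.4 and 14.7 and lay 483218 bp downstream of the start of Med13l, a Mediator subunit gene, with the T-box regulator gene Tbx3 on its other side. Both of these genes had marked promoters.

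On chromosome 4, chr4:125262678-125299133 (36456 bp, signals 9.04 and 9.25) and chr4:125302265-125327973 (25709 bp, signals 9.59 and 9.25) lay 3.131 kb apart between Zc3h12a, which encodes an RNA-degrading enzyme, and Grik3, which encodes a kainate receptor subunit. On chromosome 11, chr11:112946604-112979760 (33157 bp, signals 10.7 and 9.83) lay 164380 bp downstream of the start of Sox9, a regulator of cartilage and testis development. On chromosome 12, chr12:56452222-56478034 (25813 bp, signals 10.5 and 8.67) lay 58874 bp from Nkx2-1, a regulator of lung, thyroid and forebrain. For these 4 regions the nearest coding promoter was marked in both replicates.

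In 3 other long regions the marked promoter belonged to the more distant flanking gene. The region chr19:44870775-44901031 (30257 bp, signals 8.22 and 6.84) was nearest to the unmarked Slf2 and flanked by the marked Pax2, a regulator of kidney development. The region chr7:98747844-98777592 (29749 bp, signals 7.67 and 9.25) was nearest to the unmarked Thap12 and flanked by the marked Wnt11, which encodes a secreted Wnt ligand. The region chr15:102740948-102767411 (26464 bp, signals 12.1 and 13.3) was nearest to the unmarked Calcoco1 and flanked by the marked Hoxc13, a member of the Hoxc cluster. The remaining one of the 10, chr5:139657886-139686086 (28201 bp, signals 7.30 and 8.31), lay between the marked promoters of the homeobox gene Uncx and of Micall2.

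**Figure D2:**
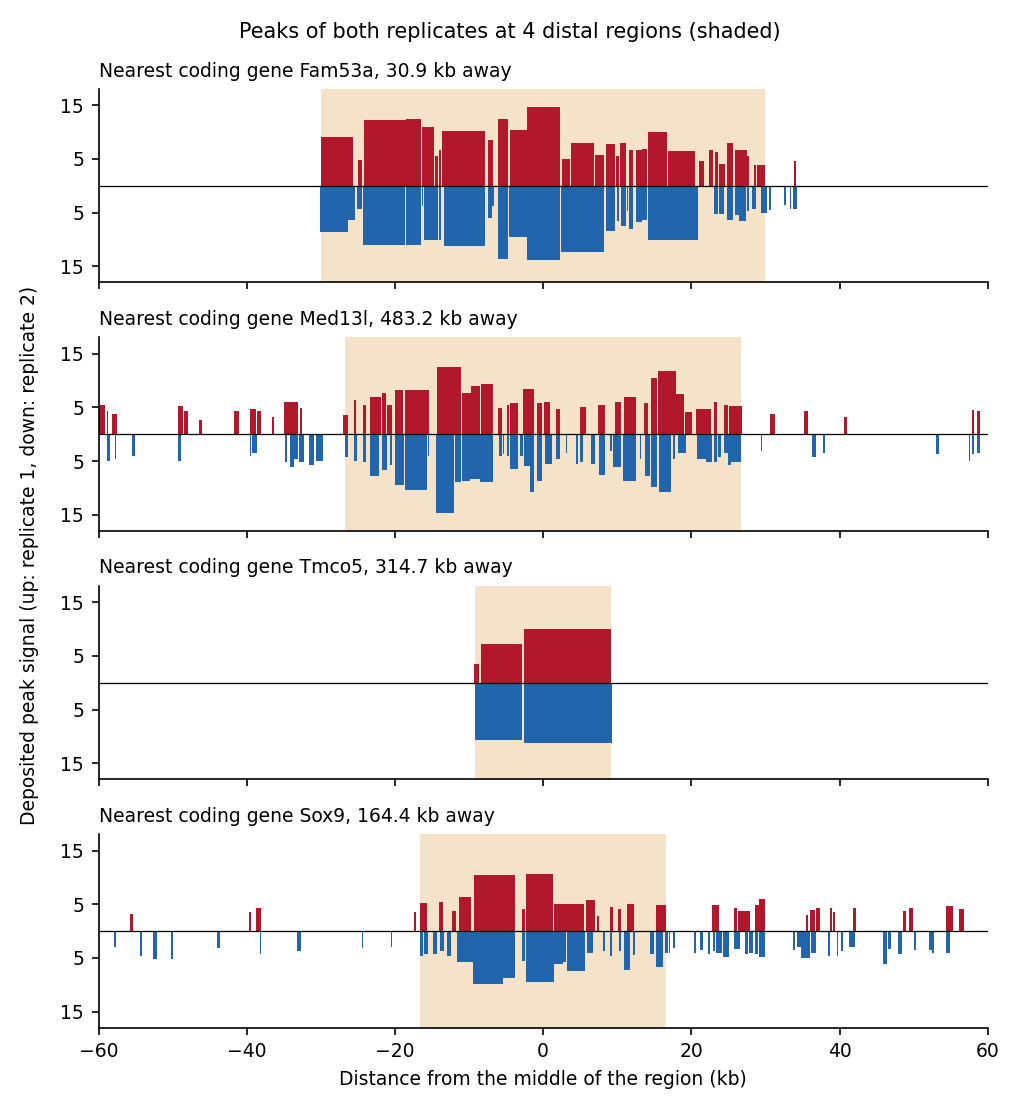
Deposited peaks of replicate 1 (bars upward) and replicate 2 (bars downward) within 60 kb of the middle of 4 distal regions, with the deposited signal on the vertical axis and the region shaded. The Fam53a, Med13l and Sox9 regions consist of many peaks that recur in both replicates, whereas the Tmco5 region consists of a few long peaks with no other peak in the window.

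The signal of a region was taken as the highest deposited signal value of a replicate's peaks in it. It had a median of 5.56 in replicate 1 (range 3.22 to 15.1) and 5.49 in replicate 2 (range 3.05 to 16.2). Ranked among all deposited peaks of its replicate, the median region stood at percentile 71.9 in replicate 1 and 77.2 in replicate 2. The measure itself raises these ranks, because the highest peak of a region is set against single peaks. The replicates gave close values, with 1153 of 1185 regions (97.3%) within 1.5-fold and an SD of 0.27 for the log2 ratio between replicates. Across regions the replicate signals had a Pearson r of 0.802 and a Spearman rho of 0.65 (n = 1185), a description only, because being marked in both replicates was part of the rule and neighbouring regions are not independent.

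Domains holding a coding start had higher signal, with medians of 9.32 and 9.25 in replicates 1 and 2. Gene-body domains without a coding start stood at 6.03 and 6.11, and intergenic domains within 10 kb of a start at 5.48 and 5.49. Distal regions therefore matched the near-start intergenic domains in median signal. For correlations, the signal of a region was the smaller of its replicate percentile ranks. Longer regions ranked higher (Spearman rho 0.513, n = 1185). Since the highest peak was taken, a region with more peaks had more chances of a high value. The signal rank had little relation to CpG ratio (rho 0.0636) or to distance from the nearest coding start (rho 0.0285) over the same regions.

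**Figure D3:**
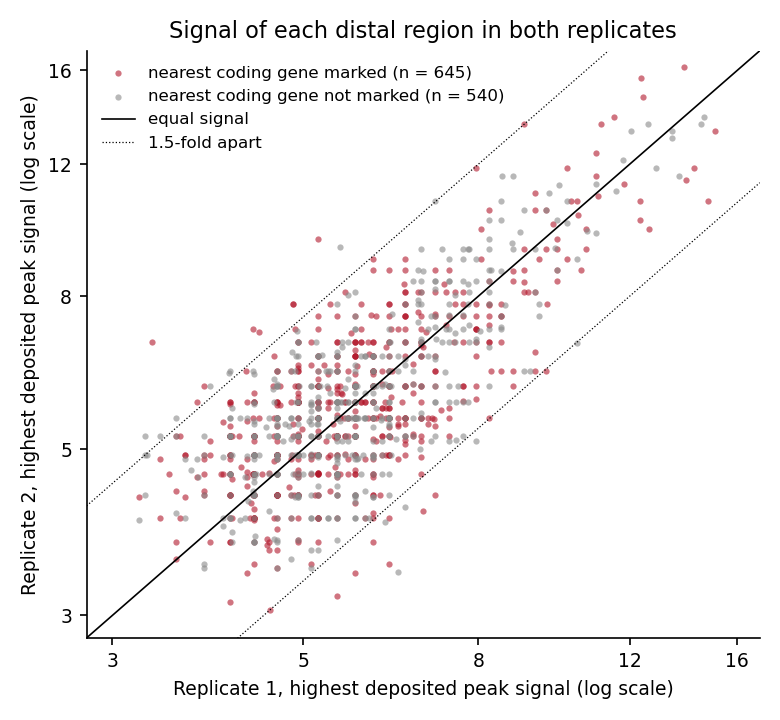
Highest deposited peak signal of each of the 1185 distal regions in replicate 1 (horizontal axis) and replicate 2 (vertical axis), both on log scales, coloured by the promoter call of the nearest coding gene. Nearly all points (97.3%) lie between the dotted lines of a 1.5-fold difference, and regions with marked and unmarked nearest genes are mixed over the whole range.

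A signal rank over 90 in both replicates was reached by 101 regions, and a rank under 50 in both was found for 60. The 101 high-ranking regions had a median length of 7608 bp, and 90 of them held a CpG-rich stretch. The 60 low-ranking ones had a median length of 1985.5 bp, and 17 held such a stretch. Over all regions the share with such a stretch was 51.5%. It was searched over the whole region, so longer regions offered more sequence. It was found in 81.7% of regions of 10 kb or more, against 31.4% of those under 2 kb. A difference in such stretches apart from length was not tested. The promoter of the nearest coding gene was marked for 54.5% of the high-ranking and 56.7% of the low-ranking regions, so these extremes of signal differed little in that call.

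The regions of highest signal in both replicates included 6 of 10 whose nearest coding promoter was not marked in both replicates. Over all 1185 regions this was the case for 45.6%. After the Fam53a region, the highest was chr2:33536638-33550671 (14034 bp), with signals of 14.5 and 13.6, between the unmarked Zbtb43 and the marked Lmx1b, a LIM-homeobox gene for limb and midbrain development. The region chr8:88447378-88457248 (9871 bp) had signals of 13.9 and 16.2 and lay 64106 bp upstream of Nkd1, which encodes an antagonist of Wnt signalling and had a marked promoter. The region chr9:37451530-37462374 (10845 bp) had signals of 15.1 and 13.3 and lay 18284 bp upstream of the marked Robo3, an axon guidance receptor gene.

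Neither flanking coding gene was marked for 2 of the 10 regions of highest signal, against 19.8% of all 1185 regions. The region chr15:102687523-102699252 (11730 bp, signals 13.4 and 13.0) lay between Atp5g2, an ATP synthase subunit gene, and Calcoco1. The region chr17:29392786-29416596 (23811 bp, signals 12.6 and 13.6) lay between Fgd2 and Pim1, a kinase gene. Both regions ranked above percentile 98 in each replicate.

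The other high-signal regions had a mixed neighbourhood. The region chr4:150022100-150035517 (signals 13.4 and 13.3) lay 13077 bp upstream of H6pd, an enzyme gene of the endoplasmic reticulum whose promoter carried a peak in replicate 2 alone. The region chr2:18604291-18611866 (signals 14.2 and 11.9) lay 60518 bp upstream of the marked Commd3. The region chr19:41435217-41442771 (signals 12.9 and 11.9) lay 39866 bp upstream of the unmarked Lcor, which encodes a nuclear receptor corepressor. The nearest coding gene was marked for 4 of these 10 regions and at least 1 flanking gene for 8. Over all 1185 regions these shares were 54.4% and 80.2%.

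The median region lay 51.9 kb from the nearest coding start (range 10.068 to 879.583 kb). The 5 most distant regions were nearest to Tenm2 (879.583 kb), Cdh2 (800.4 kb), Kcnj2 (771.719 kb), Tmem132b (744.341 kb) and 5730522E02Rik (616.873 kb). Tenm2 encodes a teneurin of neuronal synapses, Cdh2 encodes N-cadherin and Kcnj2 a potassium channel. The Tenm2 region, chr11:38115547-38126904, was 11358 bp long with signals of 8.27 and 6.36, and the nearest other domain lay 876.161 kb away. Of the 5 genes, only 5730522E02Rik had an unmarked promoter.

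For 645 of the 1185 regions (54.4%, exact 95% interval 51.5 to 57.3) the nearest coding gene had a promoter marked in both replicates, that is, with a peak of each replicate within 1 kb of its start. The same call was made for 26.8% of 20807 autosomal coding genes, and for 40.6% of bases of all distal sequence that could have held a region. The intervals cover counting error only and treat regions as independent, which neighbours are not. The call uses the same peak lists as the rule, so these shares stand side by side without a test. A peak in replicate 2 alone marked the nearest promoter of 60 regions, a peak in replicate 1 alone that of 27, and 453 (38.2%) had none.

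Looking at both flanking coding genes raised the share, in the regions and in the background. At least 1 flanking gene was marked for 950 regions (80.2%), against 67.7% of eligible distal bases. Both were marked for 331 (27.9%), against 15.3%. Of the 540 regions whose nearest gene was unmarked, 305 (56.5%) had a marked gene on the other side. No flanking gene was marked for 235 regions (19.8%), whose median length of 3032 bp and median signals of 5.64 and 5.49 were close to those of the 331 regions with both flanking genes marked (3116 bp, 5.52 and 5.49).

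The share of marked nearest genes was compared with eligible sequence at the same distance. At 10 to 20 kb it was 57.4% (116 of 202) against 32.5% of eligible bases, and at 20 to 50 kb it was 59.0% (219 of 371) against 36.2%. At 50 to 100 kb it was 51.9% (134 of 258) against 39.4%, at 100 to 200 kb 47.03% (95 of 202) against 39.9%, and at 200 to 500 kb 51.9% (70 of 135) against 41.3%. Beyond 500 kb it was 64.7% (11 of 17, interval 38.3 to 85.8) against 46.6%. The difference between these shares was larger below 50 kb than at 50 to 500 kb, and it was not tested.

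**Figure D4:**
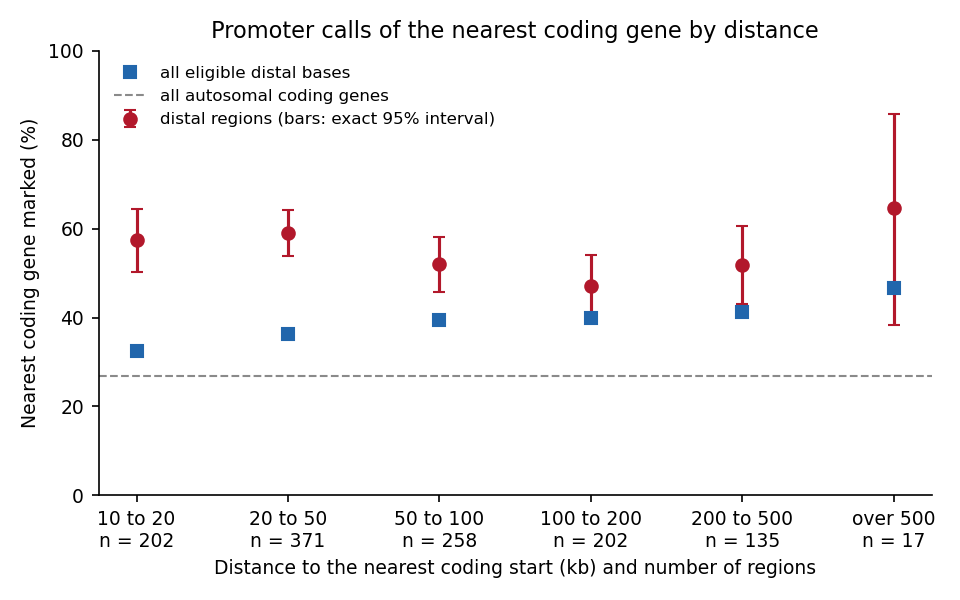
Share of distal regions whose nearest coding gene was marked in both replicates (circles, bars are exact 95% intervals), by distance to that gene's start, with the share for all eligible distal bases (squares) and for all autosomal coding genes (dashed line, 26.8%). The gap between regions and eligible bases is widest at 10 to 20 kb (57.4% against 32.5%).

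Regions were also closer to genes than the sequence available to them. The bin of 10 to 20 kb held 17.05% of regions and 7.62% of eligible bases, and the bin of 20 to 50 kb held 31.3% and 14.6%. Beyond 500 kb lay 1.43% of regions and 22.8% of eligible bases. The region lay upstream of the nearest gene's start in 740 cases (62.4%). The nearest gene was marked for 56.2% of these and for 51.5% of the 445 downstream regions. The rule leaves out gene bodies, which lie downstream of starts. The upstream share of eligible bases is not given here, so the 62.4% stands without a background.

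Regions near other domains more often had a marked nearest gene than isolated ones. The gap to the next domain had a median of 8.353 kb, and since that domain can be the one at the nearest gene's own promoter, gap and promoter call are not independent. With a gap of 10 kb or less, 398 of 657 regions (60.6%) had a marked nearest gene. With a gap of 10 to 50 kb it was 199 of 375 (53.1%), and over 50 kb it was 48 of 153 (31.4%). Median length and signal did not fall in step: the 153 isolated regions had a median of 3062 bp and signals of 5.64 and 5.49. Their median CpG ratio was 0.257, against 0.194 in the closest class.

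The 3 most isolated regions varied in CpG content. The region chr1:112416038-112417636, nearest to Dsel, had no other domain within 2432 kb, signals of 6.58 and 6.60 and a CpG ratio of 0.531. In RefSeq it held a transcript start of the noncoding gene Gm32810. The region chr16:72027181-72030871 had none within 2073 kb, signals of 8.49 and 7.52 and a CpG ratio of 0.488. Its nearest coding start in GENCODE was that of Robo1, an axon guidance receptor gene, which was unmarked. In RefSeq the region held the start of a Robo1 transcript. The region chr13:6686395-6691547, nearest to the glycolytic enzyme gene Pfkp, had none within 1511 kb and a CpG ratio of 0.129. These regions were named after their values were seen.

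Part of the set was clustered. The 1185 regions lay in 737 intervals between neighbouring coding starts, and 494 of these held 1 region. The 22 intervals with 5 or more held 144 regions (12.2%). The interval between Tfap2c, an AP-2 transcription factor gene, and Bmp7, a bone morphogenetic protein gene, held the most: 13 regions over 194.3 kb of chromosome 2, with a summed length of 70.986 kb. Both promoters were marked, and the strongest of the 13, chr2:172721330-172743445 (22116 bp), had signals of 13.9 and 11.4.

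The other intervals with 7 or 8 regions had 0 to 2 marked flanking promoters. The interval between Zc3h12a and Grik3 held 8 regions with a summed length of 83.4 kb, that between Rbm19 and the LIM-homeobox gene Lhx5 held 8 (71.7 kb), and that between Sox9 and Sstr2 held 7 (73.4 kb). Those between Arap3 and Pcdh1 and between Sdk2 and Rpl38 held 8 each (40.9 and 29.7 kb), and those between Med13l and Tbx3, Mn1 and Gm26897, and Gadd45g and Diras2 held 7 each (63.9, 45.0 and 20.2 kb). The 7 regions between Vrk1, a kinase gene, and 3110018I06Rik summed to 14.8 kb, and neither promoter was marked. By nearest gene, Grik3 led with 10 regions, followed by Vrk1 with 9, Sox9 and Tfap2c with 8 each, and Bmp7, Lhx1, Lhx5 and Nectin1 with 6 each. All of these but Vrk1 were marked.

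Signal within such groups was uneven. The 8 regions of Sox9 ran from 4.38 to 10.7 in replicate 1 and from 4.63 to 9.83 in replicate 2, at 29.586 to 581.869 kb from its start. The 9 regions of Vrk1 ran from 4.38 to 7.78 and from 4.05 to 7.82, at 19.782 to 467.196 kb. Both genes thus had regions spread over a long stretch of chromosome, with a higher maximum beside the marked Sox9. Each group lies on 1 chromosome and its regions are not independent replicates.

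Gene lists by role described the neighbourhood further. Regulators of development (homeobox, bHLH, forkhead, Sox, T-box and zinc finger families) were the nearest coding genes of 151 regions (12.7%), against 4.04% of eligible bases. These 151 regions belonged to 77 genes, and 136 had a marked nearest promoter. As either flanking gene, such regulators occurred for 253 regions (21.4%), against 7.95% of eligible bases. In the whole genome 287 of the 341 genes on the list were marked (84.2%), so the list was mostly marked with or without distal regions nearby.

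Members of this list besides Sox9, Tfap2c, Lhx1 and Lhx5 included En2, a midbrain and hindbrain homeobox gene, with 5 regions at 16.35 to 33.156 kb, and Tbx3 with 5 at 76.722 to 541.171 kb. The strongest region of En2, chr5:28110613-28132538 (21926 bp), had signals of 11.5 and 13.9, and that of Lhx1, chr11:84635476-84645152 (9677 bp), had 12.6 and 9.83. Hes1, a Notch target, and Gli2, a Hedgehog effector, each had 4 regions and an unmarked promoter. The same was found for Sall1 with 2 regions and for Runx1 with 1. A regulator with distal marked regions therefore did not always carry the mark within 1 kb of its annotated gene start. The call uses only the outermost annotated start of a gene, so other promoters of these genes were not examined.

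Secreted morphogens and their antagonists were nearest to 23 regions (1.94%, against 0.725% of eligible bases), at 11 genes that were all marked. In the whole genome 75 of the 96 genes on this list were marked (78.1%). Bmp7 led with 6 and Wnt11 followed with 4. The strongest of the list lay upstream of Wnt7b, a Wnt ligand gene, at chr15:85621593-85630443 (8851 bp, signals 10.3 and 10.7). Another Wnt7b region, chr15:85613781-85617652 (3872 bp), had signals of 9.04 and 8.36 and lay 3.94 kb away. The strongest Bmp7 region, chr2:172784593-172794059 (9467 bp), had signals of 9.32 and 8.10.

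Axon guidance and cell adhesion genes were nearest to 29 regions (2.45%), below their 8.19% of eligible bases, and 23 of these had a marked nearest promoter, on a list of which 104 of 140 genes were marked (74.3%). Besides Robo3, the strongest belonged to Unc5a, a netrin receptor gene, at chr13:54869032-54876639 (signals 10.4 and 10.7), and to the protocadherin gene Pcdh1 (signals 8.49 and 7.52). Neuronal receptors and ion channels were nearest to 26 regions (2.19%, against 2.93%), 23 of them with a marked nearest promoter, on a list of which 174 of 234 genes were marked (74.4%). Grik3 had the most regions of this list. The highest signals were those of Cacna2d2, a calcium channel subunit gene, at chr9:107376062-107385924 (signals 11.1 and 13.6). Kcnk1, a potassium channel gene, followed at chr8:126137614-126142564 (signals 10.1 and 8.96). The Kcnk1 region lay 142.444 kb from the start of Kcnk1. In RefSeq that region overlapped the coding gene Slc35f3 and held a transcript start. Both of these lists thus had shares below their share of eligible sequence, unlike the developmental regulators. By number, however, they made up 0.673% and 1.12% of autosomal coding genes, less than their shares of regions. The shares of sequence were not matched for distance, and these differences were not tested.

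Pluripotency genes were nearest to 10 regions (0.844%, against 0.372%), and 5 of these, all at Tbx3, had a marked promoter. On this list 3 of 25 genes were marked. Tbx3 and Klf4 were also on the list of developmental regulators, so their regions were counted there too. The strongest Tbx3 region was chr5:119747391-119754128 (6738 bp, signals 8.49 and 6.94). Klf4, a naive pluripotency factor gene with an unmarked promoter, had 1 region 116588 bp upstream, chr4:55649054-55653266 (4213 bp). Its signals were 6.81 and 8.68 and its CpG ratio was 0.69, far above the median of the set. Tfcp2l1, another naive factor gene, had 3 regions and an unmarked promoter, the strongest being chr1:118773195-118775433 (signals 7.78 and 5.78), and Lin28a had 1.

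Genes for Polycomb subunits were nearest to 6 regions (0.506%, against 0.104%), and 2 of these had a marked promoter. On this list 12 of 32 genes were marked. Rybp, a subunit of Polycomb repressive complex 1, had 3 regions and was unmarked. The strongest of them was chr6:100465598-100467075 (1478 bp, signals 7.25 and 9.25), and another, chr6:100162681-100173005, had signals of 6.30 and 5.38. Ezh2 had 1 region 53.109 kb away and was unmarked, whereas Scmh1 was marked and had 2, the stronger being chr4:120357237-120363376 (signals 6.72 and 5.24). Olfactory, vomeronasal and taste receptor genes, the nearest genes of 1.49% of eligible bases, had 1 region, at the taste receptor gene Tas1r2 (chr4:139698462-139705625, signals 5.75 and 6.07).

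The base composition of the regions was not used by the rule. In the central 1 kb, GC content had a median of 50.3%, against 40.2% in 884717 eligible distal tiles of 1 kb, and 98.6% of regions lay above the tile median. The ratio of observed to expected CpG had a median of 0.206 in the regions and 0.143 in the tiles. It was 0.212 in intergenic domains near a start, 0.254 in gene-body domains, 0.346 in domains holding a coding start and 0.635 at marked coding promoters. By CpG ratio the regions thus stood between eligible distal sequence as a whole and marked promoters, and much nearer to the former. The median of marked promoters was exceeded by 13 regions.

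A CpG-rich stretch, defined as 200 bp with at least 50% GC and a ratio of at least 0.6, was found in the central 1 kb of 244 regions (20.6%). The share was 4.28% of eligible tiles, 51.9% of domains holding a coding start and 84.8% of marked promoters. Anywhere within its bounds, 610 regions held one (51.5%). Those 610 were longer (median 3826.5 bp, against 2278 bp in the 575 without one), so they offered more sequence to search, and their signals were 6.03 and 5.94, against 5.21 in both replicates. The nearest coding gene was marked for 53.9% of the 610 and 55.0% of the 575.

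Among sequence of equal GC content the CpG difference was small. Within the interquartile GC range of the regions, 47.6 to 52.5%, 605 regions had a median CpG ratio of 0.206 and 69921 tiles one of 0.194, and a CpG-rich stretch was found in 20.99% and 18.9%. Median GC in this range was 50.3% in the regions and 49.2% in the tiles. Repeats filled 12.1% of the regions' window and 23.2% of the tiles' at the median. In the whole set these repeat shares were 11.4% and 29.1%. Peaks in repeats depend on how reads are placed, and the part of this, and of GC content during library preparation, in the values above was not tested.

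**Figure D5:**
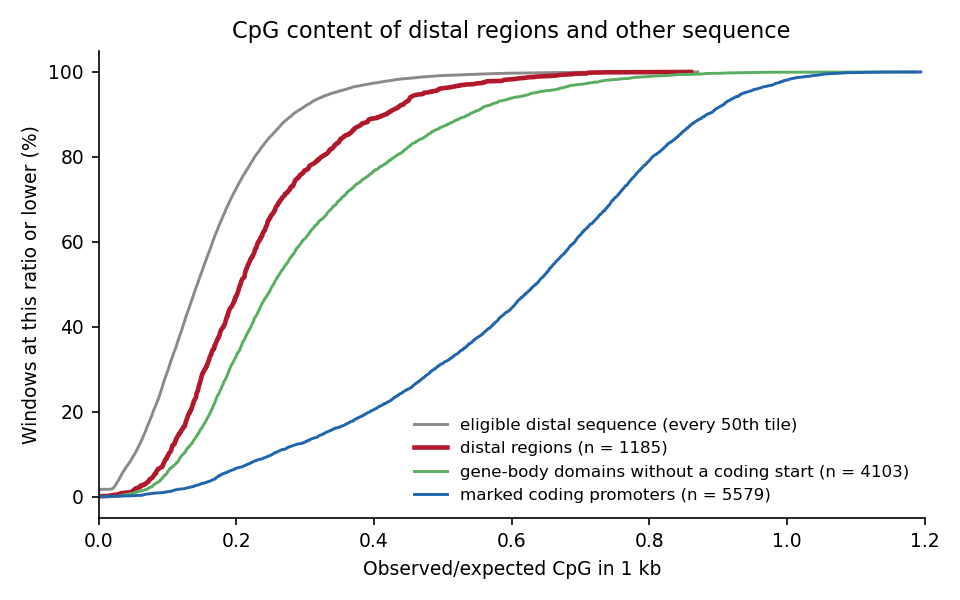
Cumulative share of 1 kb windows (vertical axis, percent) by observed/expected CpG (horizontal axis) for distal regions, eligible distal tiles, gene-body domains without a coding start and marked coding promoters. The curve of the distal regions (median 0.206) lies close to that of the tiles (0.143) and far to the left of that of the marked promoters (0.635).

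The highest CpG ratio, 0.86, was found at chr2:18587253-18591251 upstream of Commd3, with signals of 6.30 and 7.52. Next came chr12:72828176-72832901 between Ppm1a and the homeobox gene Six6 (ratio 0.738, signals 5.10 and 4.34) and chr6:51168591-51170314 nearest to Nfe2l3 (ratio 0.711, signals 8.49 and 7.81). These 3 were chosen after their values were seen. Among regions with no CpG-rich stretch, ranked here by signal, chr2:116545731-116564005 had the highest signal (9.93 and 11.3), followed by chr15:38154472-38166643 (9.82 and 9.29) and chr5:126747089-126764300 (9.59 and 10.4).

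The chr2:116545731-116564005 region stood apart in its sequence. It lay 314686 bp upstream of Tmco5, with the marked homeobox gene Meis2 as its other flank and no other domain within 464.5 kb. Its 18275 bp were almost wholly marked in both replicates (17859 bp common, in 3 pieces), and its CpG ratio was 0.0598. Comparing each base of its central 1 kb with the base 29 positions further on gave 71.4% identity, the highest of all 1185 regions, and over the whole region the same spacing gave 65.1%. The sequence printed above shows this tandem array. The best such identity for any spacing from 10 to 200 had a median of 29.9% in the regions and 31.4% in 8855 eligible tiles, and exceeded 60% in 4 regions (0.338%) and 10 tiles (0.113%). The number of repeat copies in 129/Ola cells was not measured here.

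The other 3 regions over 60% were nearest to Gm11733 (spacing 18, 66.9%), Lrig3 (14, 65.6%) and Atxn7l3b (10, 64.9%). They were shorter than the Tmco5 region by far. Repeat sequence filled over 50% of 15 regions. The extreme was chr3:9172000-9173218 nearest to Zbtb10 at 90.2%, with signals of 4.38 and 5.21, and next came chr3:62198756-62201419 at 80.1%, with signals of 6.30 and 5.49. These regions too were chosen after their values were seen.

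Short motifs were searched on both strands of the central 1 kb. GAGAGAGA, a GA repeat, was found in 255 regions (21.5%), 15.5% of eligible tiles and 13.3% of coding promoters. ATGCAAAT, the octamer that POU factors such as OCT4 recognise, was found in 50 regions (4.22%), 9.95% of tiles and 4.02% of promoters. CGCGCG, a run of CpG, was found in 23 regions (1.94%), 0.833% of tiles and 29.1% of promoters.

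These shares moved with base composition. Within GC of 47.6 to 52.5%, the GA repeat was in 24.6% of regions and 22.6% of tiles, the octamer in 4.79% and 4.22%, and the CpG run in 0.992% (6 regions) and 2.41%. The order of regions and tiles was thus turned for the octamer and the CpG run once GC content was held in this range. A match is a string of letters and no evidence of binding.

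Density differed between chromosomes. Over all autosomes there were 1.33 regions per Mb of eligible distal sequence. Chromosome 11 had the highest density, 2.88 (110 regions), and chromosome 3 the lowest, 0.446 (32 regions). By number, chromosome 2 led with 124, followed by chromosome 5 with 123 and chromosome 4 with 121. Of the 10 longest regions, 3 lay on chromosome 5.

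The distal label rests on the GENCODE annotation. In RefSeq, 256 of the 1185 regions overlapped a gene body, which was that of a long noncoding RNA gene in 224 and of a coding gene in 29, and 104 held a RefSeq transcript start. Of the 10 longest regions 6 held such a start: the Med13l region overlaps the noncoding Gm30895 and Gm31034, and the Calcoco1 region overlaps Cistr. Of the 82 regions of 10 kb or more, 25 held a RefSeq start (30.5%). With RefSeq genes added to the rule, 805 regions (67.9%) stayed distal, and the nearest coding gene was marked for 429 of them (53.3%), against 54.4% of the full set.

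The regions recurred in the other deposited lists. Each of the 2 lists of the second processing run that combined both libraries overlapped all 1185 regions, and each of the 4 lists of the first run overlapped 1184. The exception, chr8:55357313-55360439, lay 402470 bp downstream of the start of Gpm6a, a neuronal membrane protein gene, with signals of 6.58 and 5.21 and 543 bp common to both replicates. All lists come from the same libraries, so this recurrence is no independent measurement. The highest −log10 q of a region had a median of 9.24 in replicate 1 and 8.38 in replicate 2, and the lowest values were 2.72 and 2.83.

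How many regions the rule finds depends on requiring both replicates. Peaks of replicate 2 alone gave 2677 distal regions, and peaks of replicate 1 alone gave 1760. At the length threshold, the shortest regions inside were 1001, 1003 and 1003 bp long and the longest domains outside were 999, 996 and 996 bp. In all, 1851 domains met the rule except for being under 1 kb. At the distance threshold, the closest regions inside lay 10016, 10026 and 10030 bp from a transcript start, nearest to the coding genes Mfsd2a, Tle3 and Hoxb9, and the closest domains outside lay at 9965, 9964 and 9930 bp. The domain at 9965 bp, chr5:147210218-147227330, was 17113 bp long with signals of 11.0 and 11.3, more than most regions inside.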

How the data were processed

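H3K27me3 ChIP-seq peaks of 2 biological replicates of E14TG2a.4 cells were analysed on the 19 mm10 autosomes. Each deposited peak has a signal value, for which the authors' scaling is not stated, and −log10 p and −log10 q values, per the file headers and columns of the deposited lists. The file notes name a first and a second processing run. The aligner and the peak caller, and which control was used, were not given in the sources used here. The deposited mm9 list was not used. Of the 8 lists read, the pseudoreplicated list of each replicate from the second run built the domains: peaks were merged, intersected between replicates, joined within 3 kb and classed against GENCODE M21. GENCODE holds noncoding genes too. A coding promoter was marked where a peak of each replicate lay within 1 kb of the gene's start.

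Eligible distal sequence (893 Mb) is sequenced autosomal DNA outside genes and over 10 kb from starts. It was sampled at every 100th base for promoter calls and in 1 kb tiles for composition, with RefSeq's GRCm38.p6 sequence. Repeats are its lower-case bases. The domain builder was tested on simulated peaks. No test across regions was made. The regions, gene lists and tests were chosen with earlier results of these data known.

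Named were the 10 longest regions, the 10 highest by the smaller of their replicate signal ranks, the 5 farthest from a coding start, the 5 highest with an unmarked nearest gene, the 6 genes nearest to most regions (8 with ties), up to 3 regions per gene list, and 3 on either side of each threshold. Alternatives changed the joining distance, minimum length, start distance, annotation, q threshold, peak list, overlap rule, promoter window and sequence window, and left out each replicate. Adding RefSeq genes, leaving out regions over 50% repeats, the GC range and the base spacing search were chosen after seeing the data. The GC range, the regions' quartiles, replaced a slightly different fixed range tried first. A CTCF core motif was also searched and is not reported here. Sequences were read with samtools 1.23.1 and pysam 0.24.0, and values were computed with pandas 2.3.3, NumPy 2.4.6 and SciPy 1.17.1 under Python 3.11.15 and plotted with Matplotlib 3.10.9.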

Additional observations from a re-analysis of the deposited data

How the results depend on the processing

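The count of 1185 distal regions came to 700 with a start distance of 20 kb, 2075 with protein-coding genes alone as the annotation, 3193 with the relaxed lists, and 4160 and 3637 with the replicated lists of the first and second run. Leaving out a replicate gave 1760 to 2677. The other settings kept it within 1.5 times. The median length of 2989 bp became 2020 and 3643.5 bp with joining within 1 and 5 kb, 2101 and 3823 bp with a minimum of 0.5 and 2 kb, 2879 and 3121.5 bp at start distances of 5 and 20 kb, 3064 bp with protein-coding genes alone, 2969 bp with relaxed lists, 3227.5 and 3104 bp with the replicated lists of the first and second run, 2823 bp with whole overlapping peaks and 2822 bp with RefSeq added. Without a replicate it was 2985 to 2999.5 bp. The median signal rank, 73.0 as the mean of both replicates, became 75.1 with joining within 1 kb, 68.0 and 76.3 with a minimum of 0.5 and 2 kb, 77.8 with relaxed lists, 63.3 and 63.1 with the replicated lists of the first and second run, and 70.1 with whole overlapping peaks. Without a replicate it was 59.6 to 62.0. The share with a marked nearest gene, 54.4%, became 57.5% and 52.2% with joining within 1 and 5 kb, 52.54% with a minimum of 0.5 kb, 52.3% with protein-coding genes alone, 58.8% with relaxed lists, 59.5% and 58.4% with the replicated lists of the first and second run, and 46.8% and 63.4% with promoter windows of 0.5 and 2.5 kb. Without a replicate it was 55.6 to 57.8%. The median CpG ratio, 0.206, became 0.203 and 0.21 with joining within 1 and 5 kb, 0.199 with a minimum of 2 kb, 0.209 at a start distance of 20 kb, 0.216 with protein-coding genes alone, 0.199, 0.1997 and 0.197 with the relaxed and the replicated lists of the first and second run, 0.21 with whole overlapping peaks, and 0.195 and 0.215 with windows of 500 bases and of the whole region. Without a replicate it was 0.199 to 0.202. The causes of these changes were not tested. No paired analysis was possible because the series has a single group. With peak lists alone and 2 replicates, read depth and background cannot be assessed, and weakly marked sequence missed by the peak caller is not counted.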
